A study of Danio rerio with 12 samples.

Results

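The transcripts described here encode enzymes of fatty acid elongation. They are the rows of the deposited gene table named elovl1a, elovl1b, elovl2, elovl5, elovl6, elovl7a, hsd17b12a, hacd1, tecra and tecrb, which makes 10 of 25281 genes in the table. All 10 were listed above 0 in every library and passed the filter on low counts, which kept 16745 genes for testing. One of them, elovl2, passed it narrowly, with 10 or more counts in 5 of 12 libraries.

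In vertebrates, fatty acids from the diet or from fatty acid synthase are lengthened in the endoplasmic reticulum by a cycle that adds a pair of carbons from malonyl-CoA in each turn. An elongase (ELOVL) condenses the acyl-CoA with malonyl-CoA, a ketoacyl-CoA reductase (HSD17B12) and a hydroxyacyl-CoA dehydratase (HACD) follow, and an enoyl-CoA reductase (TECR) closes the cycle. The elongases set the substrate range, with ELOVL2 and ELOVL5 acting on polyunsaturated chains and ELOVL1, ELOVL6 and ELOVL7 mainly on saturated and monounsaturated ones, whereas the later enzymes serve all chains. In mammals HACD1 is best known from skeletal muscle, where its loss causes a myopathy.

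Muscle was taken from behind the anus, up to the tail fin, from wild type zebrafish aged 2 to 3 months by the labels, whose strain field reads not applicable. By the methods the fish were older, being bought at 3 months of age and then kept for more than a month. The 3 groups were fish deprived of food for 24 h (Fast) and fish refed after the same fast and sampled 3 h (Refed_3h) or 8 h (Refed_8h) later, with 4 separate fish in each, both sexes being present in each group by the methods but not given per fish. The methods describe the fish as kept and refed together in a small tank, and describe no repeat of the fast and refeeding. The tests below thus measure spread among fish, not among repeats of the refeeding. The libraries were made from poly(A) RNA and read as paired ends. No group of fish that had not been fasted was included, and the time of sampling and the time since refeeding cannot be told apart.

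Counts assigned to genes summed to 11929140 to 18446239 per library. Skeletal muscle markers were abundant in every fish: all 16 of the list were found and in TPM summed to 75640 to 92930 for Fast, 81040 to 105800 for Refed_3h and 82370 to 108700 for Refed_8h, led by the creatine kinase gene ckmb. TPM, the unit of level used throughout, counts transcripts relative to exon length and to the library. Skin epithelium markers were also high, with all 22 found and none at 0 throughout, at 24370 to 30940 TPM in Fast fish, 15570 to 26380 at 3 h and 14530 to 27660 at 8 h, led by the keratin gene krt5. Hepatocyte markers, from the organ best known for making lipid, summed to 0.256 to 1.11 TPM over all fish, with 2 of 10 at 0 in every library. Adipocyte markers summed to 347 to 635 TPM, with all 8 found. Their means over the 12 fish were 395 TPM for fabp11a, 30.9 for cebpa, 29.4 for lpl, 29.3 for adipoqb, 2.40 for cidec, 1.14 for pparg, 0.0329 for lepa and 0.00796 for plin1.

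The levels of the 10 transcripts spanned a wide range. By mean TPM over the 12 fish the order was hacd1 (50.5), tecrb (41.2), elovl1b (39.5), tecra (34.2), elovl7a (15.4), hsd17b12a (12.9), elovl6 (6.67), elovl1a (3.59), elovl5 (1.66) and elovl2 (0.243). The ranges over fish of neighbours in this order overlapped, except for elovl5 and elovl2, at 0.638 to 3.02 and 0.0906 to 0.421 TPM. Thus at least 1 transcript of each step of the cycle was measured above 10 TPM on average, and among the elongases elovl1b accounted for most of the summed level.

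**Figure D1:**
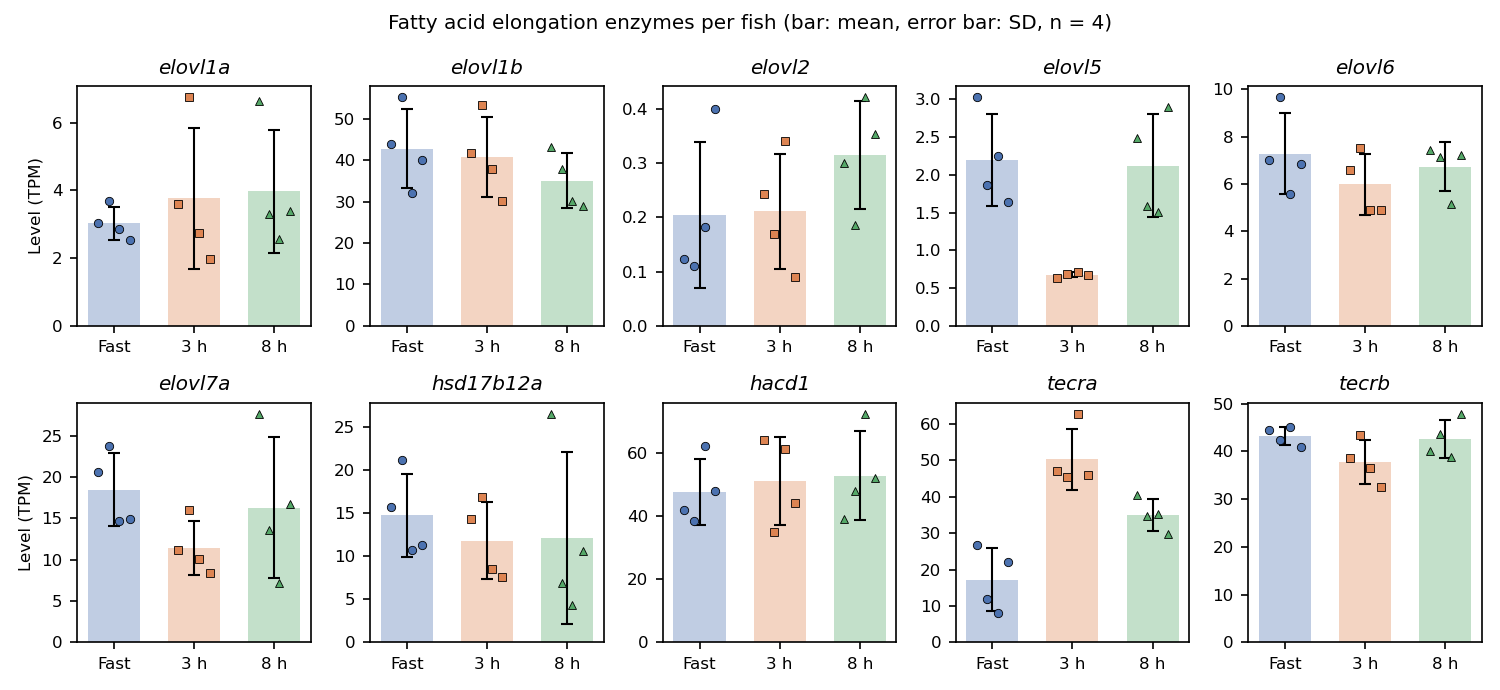
Level of each of the 10 elongation transcripts in TPM for the 4 fish of Fast (circles), Refed_3h (squares) and Refed_8h (triangles), each panel with its own axis from 0, with bars for the mean and error bars for the SD (n = 4). For tecra the groups do not overlap, with means of 17.2, 50.3 and 35.1 TPM, and for elovl5 the Refed_3h fish all lie below 0.717 TPM and every other fish lies at 1.503 TPM or higher.

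The first comparison asked which of these transcripts differed between fasted fish and fish refed for 3 h. One of 10 rose, tecra, and 1 of 10 fell, elovl5, in edgeR's quasi-likelihood test at an adjusted p under 0.05, and both changed more than 2-fold, so that both were DEGs. Over all 16745 genes tested the same test called 2.28% higher and 2.63% lower in Refed_3h. The other 8 members did not pass, with log2 fold changes from -0.37 for elovl7a to 0.61 for elovl1a and adjusted p-values of 0.29 to 0.99. The median log2 fold change of the 10 was 0.20, against -0.01 over all genes tested, and 7 of 10 lay above 0. Of the 10, 2 had an unadjusted edgeR p under 0.05, and these were the same 2 genes, tecra and elovl5. Of all 16745 genes tested, 3828 had one.

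The enoyl-CoA reductase gene tecra (ENSDARG00000101585, GRCz11 chromosome 3, 49397115 to 49421274) encodes the enzyme that completes each turn of the cycle. Its level was 26.7, 11.8, 8.16 and 22 TPM in the 4 Fast fish, on 272 to 1050 counts. After 3 h of refeeding it was 47.1, 45.5, 62.8 and 45.9 TPM, on 2124 to 2689 counts. Every Refed_3h fish was above every Fast fish, and among the Fast fish replicates 1 and 4 were the higher. Expression was upregulated by 1.93 on the log2 scale (SE 0.28, n = 4 per group, edgeR adjusted p = 0.0025). Of all genes tested, 1.05% were higher in Refed_3h with no overlap between the groups' TPM. The call for tecra held in all 23 alternative fits, with log2 fold changes of 1.62 to 2.12 and an adjusted p of at most 0.035.

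At 8 h tecra was at 40.4, 34.6, 35.4 and 29.9 TPM (35.1 ± 4.33, SD, n = 4), between the other groups and overlapping neither. All 4 fish were above the highest Fast fish and below the lowest Refed_3h fish. The log2 fold change was 1.17 against Fast (SE 0.27, edgeR adjusted p = 0.058) and -0.76 against Refed_3h (SE 0.27, edgeR adjusted p = 0.11), so neither difference passed the threshold over all genes. The first passed in 2 of 23 alternative fits, with DESeq2 (adjusted p = 0.0023) and just at the threshold without Fast replicate 4. The second passed in 2 of 23, with only these groups in the fit (adjusted p = 0.029) and without Fast replicate 3 (adjusted p = 0.038).

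The paralog tecrb (ENSDARG00000025904, chromosome 1, 55752593 to 55777154) stayed within a narrow range, at 43.2 ± 1.96 TPM in Fast, 37.8 ± 4.51 at 3 h and 42.6 ± 4.08 at 8 h (SD, n = 4). It spread less within Fast than tecra did, and its groups overlapped in all comparisons. Its log2 fold change was 0.15 in Refed_3h vs Fast (SE 0.13, adjusted p = 0.51) with counts scaled by TMM and lay between -0.20 and -0.19 on the TPM scale. In Fast, tecrb was the more abundant of the pair in every fish, and tecra made up 15.3% to 37.6% of their summed TPM. In Refed_3h tecra was the more abundant in every fish, at 51.2% to 63.2%. In Refed_8h its share was 38.4% to 50.2%, above tecrb only in replicate 1. The exons of tecra were 2.52 times as long as those of tecrb in the deposited values, so counts of the pair were not compared directly.

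The ratio of tecra to tecrb within each fish does not depend on the scaling between libraries. Its mean was 1.89 higher on the log2 scale in Refed_3h than in Fast, 1.20 higher in Refed_8h than in Fast, and -0.69 in Refed_8h relative to Refed_3h. The fish of any pair of groups did not overlap in this ratio, and each difference had p = 0.029 (exact two-sided permutation test), the smallest that 4 fish against 4 allow. Adjusted over the 6 ratio tests made, p was 0.057 for each, which does not pass 0.05. As each was already at the smallest p possible, a larger difference could not have lowered this value. The adjusted test therefore cannot decide the question. Summed over both genes, the enoyl-CoA reductase level was 60.4 ± 8.35 TPM in Fast, 88.1 ± 8.69 at 3 h and 77.7 ± 2.67 at 8 h (SD, n = 4), and the lowest refed fish, at 74.1 TPM, was above the highest Fast fish, at 71.1 TPM. Reads that match both paralogs could be split between them, and how the authors counted such reads is not given in the sources used here.

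**Figure D2:**
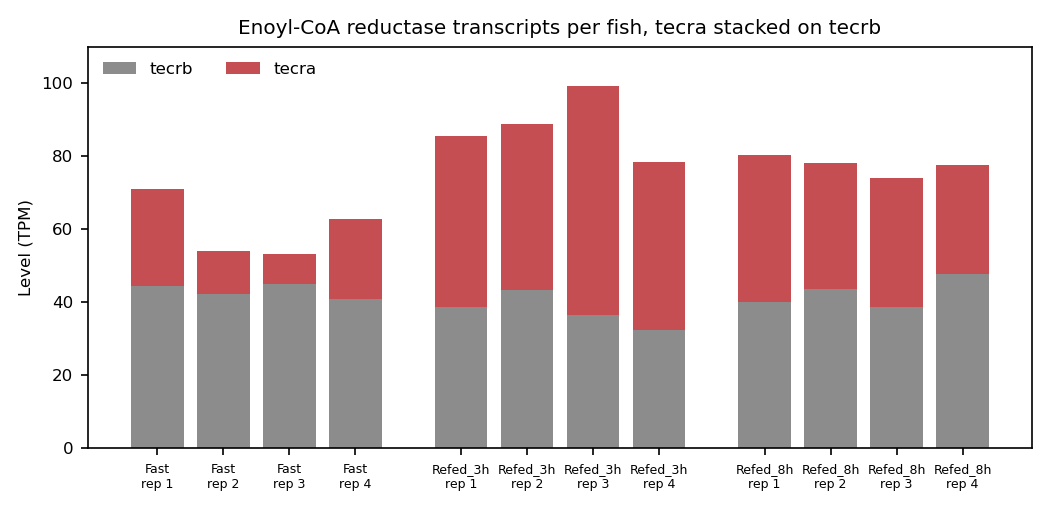
Level of tecrb (grey) and tecra (red, stacked on it) in TPM for each fish, by group and replicate. The tecrb part stays between 32.5 and 47.8 TPM in all 12 fish, and the tecra part runs from 8.16 TPM in Fast replicate 3 to 62.8 TPM in Refed_3h replicate 3.

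Among the elongases, elovl5 (ENSDARG00000004979, chromosome 13, 2394264 to 2417409) lengthens polyunsaturated fatty acids. Its level was 3.02, 1.86, 2.24 and 1.64 TPM in Fast, on 39 to 62 counts. In Refed_3h it was 0.638, 0.682, 0.716 and 0.678 TPM, on 15 to 19 counts. All Refed_3h fish were below all Fast fish, and they lay close together. In Refed_8h it was 2.49, 1.59, 1.503 and 2.89 TPM, on 34 to 78 counts, which overlapped with Fast and lay wholly above Refed_3h.

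Expression of elovl5 was downregulated by -1.31 on the log2 scale in Refed_3h vs Fast (SE 0.25, edgeR adjusted p = 0.012). Of all genes tested, 16.5% were lower in Refed_3h with no overlap between the groups' TPM. In Refed_8h it was upregulated again, by 1.36 relative to Refed_3h (SE 0.25, edgeR adjusted p = 0.0073), the only member called in that comparison. Its difference between Refed_8h and Fast was 0.06 (SE 0.23, edgeR adjusted p = 0.95). Leukocyte and pigment cell markers were also lowest on average in Refed_3h, as were the scarce hepatocyte markers. From Fast to Refed_3h the mean sums of skin and endothelium markers fell too, while those of muscle, adipocyte, erythrocyte, nerve and fibroblast markers rose. These sums are in TPM. Over genes with a mean of at least 0.5 TPM, log2 fold changes of TPM + 1 had a median of -0.26 for Refed_3h vs Fast. All 7 leukocyte markers were found, none at 0 throughout, and summed to 2797 to 3409 TPM in Fast, 2020 to 2860 at 3 h and 2730 to 4885 at 8 h, and 7 of 8 pigment cell markers summed to 19.8 to 45.3, 10.8 to 21.1 and 16.5 to 26.2 TPM. Their part in the differences of elovl5 was not tested. The drop lost its call in 2 of 23 alternative fits, with the skin marker sum as a covariate (log2 fold change -1.23, adjusted p = 0.093) and, chosen after seeing the data, without the fish of lowest muscle marker sum in each group, Fast replicate 2, Refed_3h replicate 2 and Refed_8h replicate 1 (-1.28, adjusted p = 0.059), while its adjusted p over all alternatives was 7.6e-04 to 0.093. The rise lost its call in 1 of 23, without the same 3 fish (1.30, adjusted p = 0.066; 2.4e-04 to 0.066 over all alternatives).

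The second polyunsaturated elongase, elovl2 (ENSDARG00000045414, chromosome 24, 8861272 to 8887825), was the least abundant member, on 4 to 15 counts per library. It was at 0.204 ± 0.134 TPM in Fast, 0.211 ± 0.107 at 3 h and 0.315 ± 0.0991 at 8 h (SD, n = 4). The groups overlapped, and its log2 fold changes of 0.32 (SE 0.52) in Refed_3h vs Fast and 0.69 in Refed_8h vs Fast carried the widest errors of the 10 members. None of its differences passed the test.

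The elongases of saturated and monounsaturated chains gave no call in any comparison. The most abundant, elovl1b (ENSDARG00000103735, chromosome 11, 13094179 to 13152524), was at 42.8 ± 9.56 TPM in Fast, 40.7 ± 9.72 at 3 h and 35.1 ± 6.68 at 8 h (SD, n = 4). Its paralog elovl1a (ENSDARG00000099960, chromosome 2, 19163965 to 19215112) was at 3.03 ± 0.493, 3.76 ± 2.09 and 3.97 ± 1.83 TPM (SD, n = 4). Both encode elongases of very long chains, and elovl1b was the more abundant in every fish. The ratio of elovl1a to elovl1b differed by 0.25 to 0.59 on the log2 scale between groups, the smallest falling to 0.057 without Refed_3h replicate 2, with unadjusted p-values of 0.086 to 0.34 (exact two-sided permutation test; adjusted over the 6 ratio tests, 0.13 to 0.34).

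Expression of elovl6 (ENSDARG00000004402, chromosome 14, 36231126 to 36268710), whose product lengthens the products of fatty acid synthase, was 7.28 ± 1.71 TPM in Fast, 5.98 ± 1.30 at 3 h and 6.74 ± 1.05 at 8 h (SD, n = 4). The groups overlapped, and the log2 fold change in Refed_3h vs Fast was 0.04 (SE 0.22, adjusted p = 0.93). Expression of elovl7a (ENSDARG00000069279, chromosome 8, 16758304 to 16769798) was 18.5 ± 4.42, 11.4 ± 3.28 and 16.3 ± 8.53 TPM (SD, n = 4). It had the lowest log2 fold change of the uncalled members at 3 h, -0.37 (SE 0.29, adjusted p = 0.47), and its Refed_3h fish still overlapped with Fast, at 8.41 to 16.0 against 14.7 to 23.7 TPM.

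Summed over the 6 elongases, the level was 57.7 to 94.1 TPM in Fast, 46.2 to 84.5 at 3 h and 47.1 to 87.6 at 8 h, which overlapped. The share of elovl1b in this sum was 55.7% to 60.4% in Fast, 63.1% to 66.8% in Refed_3h and 48.7% to 64.2% in Refed_8h. Its Refed_3h fish thus lay above the Fast fish in share though not in level. This difference in share was not tested, and the share also depends on the other elongases in the sum. A share within a fish does not depend on the scaling between libraries, but TPM levels do. Over the 16273 genes with a mean of at least 0.5 TPM, log2 fold changes of TPM + 1 had a median of -0.26 for Refed_3h vs Fast. On the same setting the median was -0.08 for Refed_8h vs Fast and 0.18 between the refed groups. For Refed_3h vs Fast it was -0.34 with a pseudocount of 0.1 TPM, and -0.14 with a pseudocount of 1 and no filter. Tests on log2(TPM + 1) with limma differ from the edgeR fit in test and gene filter as well as in scaling. They called 75 genes higher and 1167 lower in Refed_3h vs Fast, against 381 and 440 with edgeR. In Refed_8h vs Fast they called 63 and 141, against 91 and 143. In Refed_8h vs Refed_3h they called 550 higher and 122 lower, against 512 and 562. The fold changes of elovl1b and elovl6 at 3 h, 0.25 and 0.04 with TMM, were below 0 on log2(TPM + 1), at -0.07 and -0.24. None of them passed the test on either.

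Of the middle steps, hsd17b12a (ENSDARG00000015709, chromosome 25, 30196039 to 30230559), the ketoacyl-CoA reductase gene, was at 14.8 ± 4.85 TPM in Fast, 11.8 ± 4.50 at 3 h and 12.1 ± 9.96 at 8 h (SD, n = 4). Its Refed_8h fish were far apart, from 4.39 to 26.6 TPM. Its log2 fold change was -0.01 in Refed_3h vs Fast (SE 0.43, adjusted p = 0.99). The dehydratase gene hacd1 (ENSDARG00000103744, chromosome 7, 59020972 to 59032302) was the most abundant member, at 47.7 ± 10.5, 51.1 ± 13.9 and 52.8 ± 14.1 TPM (SD, n = 4). It was above 34.9 TPM in every fish and its log2 fold change at 3 h was 0.45 (SE 0.26, adjusted p = 0.33).

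**Figure D3:**
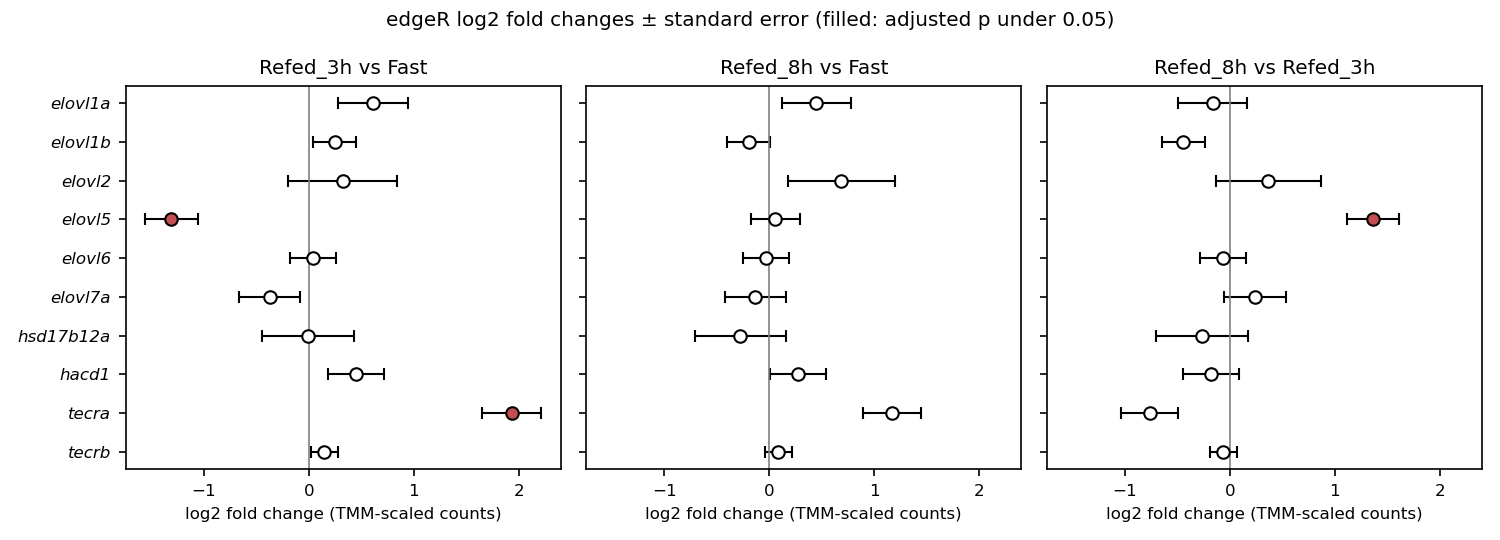
The edgeR log2 fold change of each member with its standard error, with 1 panel per comparison, filled where the adjusted p is under 0.05. The filled points are tecra (1.93) and elovl5 (-1.31) in the first comparison and elovl5 (1.36) in the last.

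In Refed_8h vs Fast, 0 of 10 members passed the edgeR test, against 0.543% of all genes higher and 0.854% lower. One member, tecra, had an unadjusted edgeR p under 0.05, against 2169 of all 16745 genes. With DESeq2 1 of 10 passed, also tecra, against 656 of all genes. The groups' TPM did not overlap for 1 member on the higher side, tecra, and for 0 on the lower side, against 2.05% and 4.29% of all genes. Without tecra and elovl5, the other 8 members had log2 fold changes from -0.28 for hsd17b12a to 0.69 for elovl2, with adjusted p-values of 0.61 to 0.97. The median of the 10 was 0.07, and 6 lay above 0.

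In Refed_8h vs Refed_3h, 1 of 10 members was higher, elovl5, and 0 were lower, against 3.06% and 3.36% of all genes in the edgeR test. The members with an unadjusted edgeR p under 0.05 were 2, elovl5 and tecra, against 3750 of all 16745 genes. Only elovl5 passed with DESeq2, which called 1776 of all genes. TPM of elovl5 and tecra did not overlap between these groups. The first was higher in Refed_8h, as were 11.7% of all genes, and the second lower, as were 2.05%. The other 8 had log2 fold changes from -0.44 for elovl1b to 0.36 for elovl2 and adjusted p-values of 0.23 to 0.89. The median of the 10 was -0.12, and 3 lay above 0. The comparisons share the fish of 1 group each, so they are not independent of each other.

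Differences among fish of the same group were shared by several members. The highest fish was Fast replicate 2, Refed_3h replicate 2 and Refed_8h replicate 1 for 5 of 10 members, elovl1a, elovl1b, elovl6, elovl7a and hsd17b12a, and hacd1 was lowest in these same 3 fish. How many of all genes were highest in these 3 fish was not counted, so the pattern is not shown to be particular to the members. The summed skeletal muscle markers were lowest in these 3 fish too, at 75642, 81040 and 82365 TPM. The summed skin markers were highest in the refed fish of the 3, at 26375 and 27658 TPM, and at 30722 TPM in the Fast one they were close to the highest, 30941 TPM in Fast replicate 1. In bulk tissue fewer cells of a type and less RNA per cell cannot be told apart.

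A slope on the skin marker sum within groups was taken from the edgeR fit with that sum as a covariate, a reading chosen after seeing the data. For each doubling of the skin sum the log2 level of hsd17b12a was higher by 1.75 (SE 0.36, adjusted p = 0.085), that of elovl1a by 1.17 (SE 0.35, adjusted p = 0.16) and that of elovl7a by 0.97 (SE 0.32, adjusted p = 0.19). The slope of hacd1 was -0.99 (SE 0.32, adjusted p = 0.19). None of the 10 passed, 4 had an unadjusted p under 0.05, as had 15.4% of all genes, and of all genes 0.00597% were called higher with more skin transcripts and 0.0% lower. For the members called between groups, tecra and elovl5, the slopes were -0.13 (SE 0.42) and 0.15 (SE 0.37). With this covariate the fold changes of elovl7a, hsd17b12a and hacd1 in Refed_3h vs Fast changed sign, from -0.37 to 0.12, from -0.01 to 0.87 and from 0.45 to -0.04, and none of them passed the test in either fit.

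**Figure D4:**
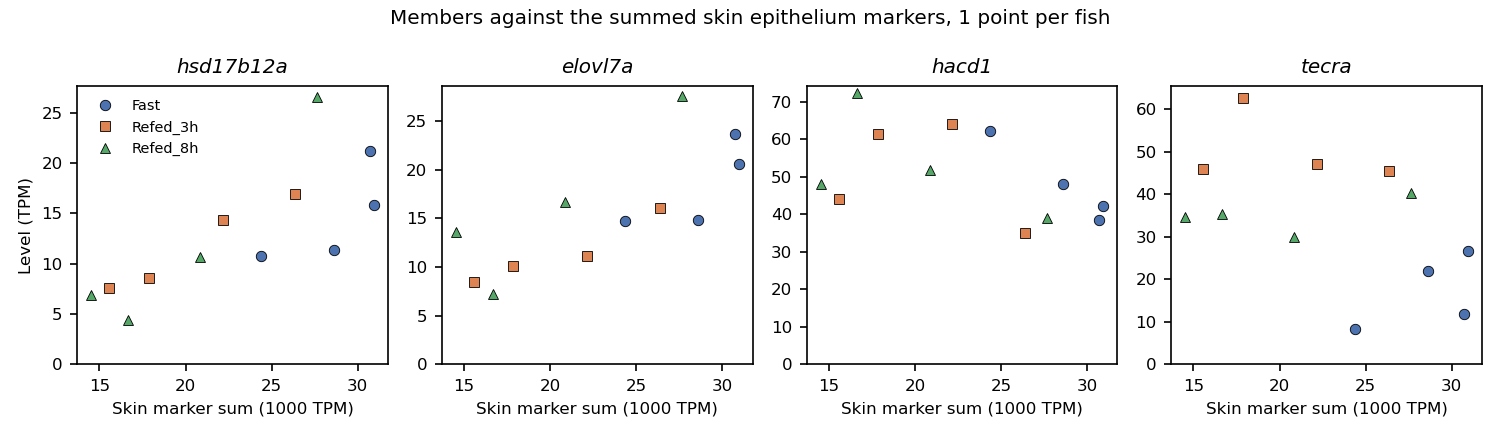
Level of hsd17b12a, elovl7a, hacd1 and tecra in TPM against the summed level of 22 skin epithelium markers, in units of 1000 TPM, with 1 point per fish (circles Fast, squares Refed_3h, triangles Refed_8h). The slopes within groups, on the log2 scale per doubling of the skin sum, are 1.75, 0.97, -0.99 and -0.13 in the order of the panels, none past the test, and Fast replicate 4, with a high skin sum of 28610 TPM, lies low in hsd17b12a and elovl7a.

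Other genes of the elongation cycle were also examined. Of 13 listed, 10 were in the table and 7 were tested, and 0 of 7 passed the edgeR test in any of the 3 comparisons. The most abundant were the dehydratase gene hacd2, with a mean of 17.8 TPM over the 12 fish, and the ketoacyl-CoA reductase gene hsd17b12b, with 9.93 TPM and a range of 8.41 to 12.6 TPM. They were followed by hacd3 (7.58 TPM), tecrl2b, named as a relative of TECR (7.40 TPM), and elovl6l (5.64 TPM), while elovl8b and elovl4a stayed below 1 TPM on average. The elovl6-related elovl6l was close to elovl6 itself in level, at 5.64 against 6.67 TPM.

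Genes that supply or use the substrates of elongation were counted by list from the same edgeR tests, with no test of a list as a whole. Against these counts stand the shares over all genes, 2.28% higher and 2.63% lower in Refed_3h vs Fast, and 3.06% higher and 3.36% lower between the refed groups. Of 12 genes for the synthesis or breakdown of malonyl-CoA, fatty acid synthase and desaturases, 1 rose in Refed_3h vs Fast and 0 fell, with a list median of 0.20. It was mid1ip1l, known in mammals to promote the polymerization of acetyl-CoA carboxylase, the source of malonyl-CoA. Its level was 71.7 ± 33.8 TPM in Fast, 394 ± 72.6 at 3 h and 172 ± 76.6 at 8 h (SD, n = 4), a log2 fold change of 2.83 at 3 h (SE 0.39, edgeR adjusted p = 0.0024). In Refed_8h vs Refed_3h 2 of these 12 fell, mid1ip1l (-1.43, adjusted p = 0.040) and the fatty acid synthase gene fasn (-0.73, adjusted p = 0.037), and in Refed_8h vs Fast 0 passed.

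Of 14 tested genes for acyl-CoA synthetases and fatty acid transport, which activate and carry the chains that are lengthened, 2 rose at 3 h and 0 fell. They were acsl4a, an acyl-CoA synthetase gene, from 7.51 ± 1.76 to 12.4 ± 3.03 TPM (log2 fold change 1.08, adjusted p = 0.011), and acbd7, an acyl-CoA binding protein gene, by 0.89 (adjusted p = 0.029). In Refed_8h vs Refed_3h 2 of the 14 fell, acsl3b by -0.90 (adjusted p = 0.0050) and acsl1a by -0.58 (adjusted p = 0.0496), both acyl-CoA synthetase genes. Of 16 tested genes for transcription factors of lipid synthesis and proteins that regulate them, 1 fell at 3 h and 0 rose. It was pparg, a lipid-responsive nuclear receptor that is also among the adipocyte markers. Its level went from 1.77 ± 0.221 to 0.574 ± 0.130 TPM (log2 fold change -1.27, SE 0.33, adjusted p = 0.044). The adipocyte marker sum, led by fabp11a, averaged 475.4 TPM in Fast, 534.5 at 3 h and 454.6 at 8 h. The part of adipocytes in the difference of pparg was not tested.

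Of 16 genes for the synthesis or turnover of ceramide, 0 passed in either comparison with Fast. Ceramide synthesis uses very long chain acyl-CoA, but not every gene of the list acts in that step. In Refed_8h vs Refed_3h 1 rose, smpd1 (0.63, adjusted p = 0.035), a sphingomyelinase gene. In the same comparison 1 fell, sptlc2b (-0.71, adjusted p = 0.036), a gene for a subunit of the enzyme that begins sphingolipid synthesis. Of 18 genes for chain shortening or elongation in peroxisomes and mitochondria, 0 passed in any comparison.

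**Figure D5:**
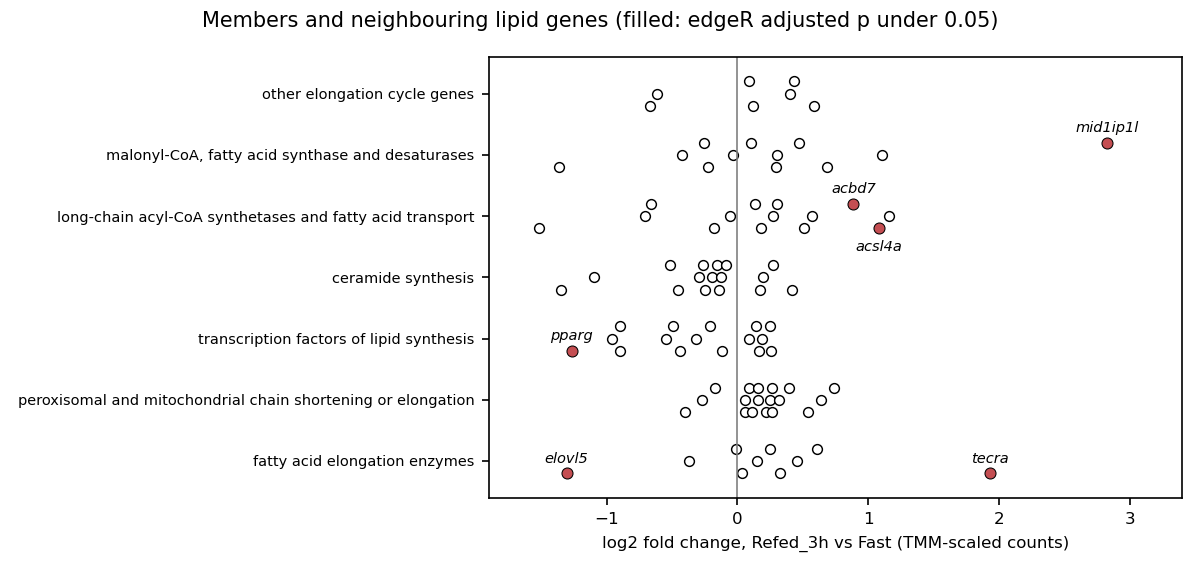
The edgeR log2 fold change in Refed_3h vs Fast of each tested gene of the 10 members (bottom row) and of 6 lists of related lipid genes, 1 point per gene, filled and named where the adjusted p is under 0.05. The filled points are tecra (1.93) and elovl5 (-1.31) among the members, and mid1ip1l (2.83), acsl4a (1.08), acbd7 (0.89) and pparg (-1.27) in the lists.

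The genes most like tecra and elovl5 across the 12 libraries were taken as those of highest Pearson r of log2 CPM among 4752 tested genes with a mean of at least 10 TPM, as a description. For tecra they were lman2lb (r = 0.93), the parvalbumin gene pvalb3 (r = 0.91) and the fast troponin C gene tnnc2 (r = 0.91), the last of which is also one of the 16 muscle markers. The mean level of lman2lb was 11.4 TPM in Fast, 14.1 at 3 h and 13.7 at 8 h. That of pvalb3 was 28100, 36840 and 34630 TPM, and that of tnnc2 was 4667, 6987 and 6170 TPM. Each differed less in proportion between the groups than tecra, at 17.2, 50.3 and 35.1 TPM. The muscle marker sum averaged 82720 TPM in Fast, 96080 at 3 h and 96720 at 8 h, and its part in the difference of tecra was not tested.

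For elovl5 the most alike were klhl24b (r = 0.95), pdk2a (r = 0.94), a pyruvate dehydrogenase kinase gene, and plxnb2a_1 (r = 0.94). The mean level of pdk2a was 45.8 TPM in Fast, 2.01 at 3 h and 28.9 at 8 h. That of klhl24b was 31.7, 4.10 and 30.5 TPM, and that of plxnb2a_1 was 12.6, 6.82 and 11.1 TPM. All 3 had the order of groups of elovl5, at 2.19, 0.679 and 2.12 TPM, and plxnb2a_1 differed least between them. The 12 points share their libraries and group means, so this likeness includes the group differences already given.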

How the data were processed

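Muscle RNA of 12 fish, 4 for each of Fast, Refed_3h and Refed_8h, was sequenced, and CLC Genomics Workbench was used by the authors for mapping to GRCz11. Which annotation release and strand setting they used, and how reads with several matches were treated, is not given in the sources used here. Per gene and fish, the deposited counts are raw whole numbers. The deposited table also holds the authors' TPM, which is scaled by exon length and library, and the authors' RPKM, used here for relative exon length alone. Its 12 CPM columns and 18 columns of the authors' comparisons (group means, fold changes, p-values, FDR and Bonferroni values) were not used. Samples were grouped by GEO's labels and the columns matched by name.

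Counts were filtered with filterByExpr, normalized by TMM, with factors from 0.790 to 1.21, and all 12 libraries were fitted together, by group, with edgeR 4.0.16 in R 4.3.3 (robust glmQLFit, glmQLFTest). The Benjamini-Hochberg adjustment ran over the 16745 tested genes. A gene was called at an adjusted p under 0.05 and was a DEG if it also changed at least 2-fold. The biological coefficient of variation was 30.6%. Each standard error is the log2 fold change over the root of its F statistic. Ratios of paralogs were compared with exact permutation tests in scipy 1.17.1. The fits and permutation tests were tested on simulated data. No library looked like a repeat of another, the chi-square per gene over 66 pairs being 28.7 to 91.0.

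The members and the gene lists were chosen with earlier results of these data known. From the same libraries, the paper had already named tecra and mid1ip1l as refeeding genes and pdk2a as a fasting gene. Genes named were all 10 members, up to 4 called genes of each list and comparison, the most abundant gene of a marker list, and 3 genes most like each DEG. The adipocyte markers other than fabp11a and the genes hacd2, hsd17b12b, hacd3, tecrl2b, elovl6l, elovl8b and elovl4a were named after their values were seen. Alternatives were DESeq2 1.42.0, RLE factors, no filter, only the groups compared, a replicate block, replicates 1 and 2 against 3 and 4 as a block, limma 3.58.1 on log2(TPM + 1) or log2(TPM + 0.1) with a mean of at least 0.5 TPM or no filter, the skin marker sum as a covariate, and each library left out. The removal of the fish of lowest muscle marker sum in each group was added after seeing the data. Gene identity, position and exons are as the deposited table gives them, and sequences were not used here.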

Additional observations from a re-analysis of the deposited data

Results flagged for a closer look

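In 2 of 30 groups of 4 fish, that is 10 members in 3 groups, a fish stood far from the other 3. Chance flags about 1 in 20 such groups. For tecra, Refed_3h replicate 3 was highest at 62.8 TPM, and its gap to the next fish was 0.90 of the group's range. For elovl6, Refed_8h replicate 3 was lowest at 5.17 TPM, with a gap of 0.87 of the range. Leaving out Refed_3h replicate 3 kept the call of tecra.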

How the results depend on the processing

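Over 30 log2 fold changes, 10 members in 3 comparisons, 683 values were obtained from 23 alternatives, and 618 kept their direction and side of the threshold, 3 lost a call, 4 gained one and 58 changed sign. The calls that moved were those of tecra and elovl5. The members called in Refed_3h vs Fast went from 2 to 1 with the skin covariate and to 1 without the 3 fish of lowest muscle marker sum, and stayed at 2 with any 1 library left out. In Refed_8h vs Fast they went from 0 to 1 with DESeq2 and were 0 to 1 with 1 library left out, and in Refed_8h vs Refed_3h they went from 1 to 2 with only these groups, to 0 without the 3 fish, and were 1 to 2 with 1 library left out. Over all genes, the 821 calls in Refed_3h vs Fast became 1677 with DESeq2, 1242 and 1344 with limma at a pseudocount of 1 and 0.1 TPM, 161 with the skin covariate, 457 without the 3 fish and 264 to 805 with 1 library left out. The 234 in Refed_8h vs Fast became 656 with DESeq2, 115 with the skin covariate, 154 without the 3 fish and 150 to 229 with 1 library left out. The 1074 in Refed_8h vs Refed_3h became 1776 with DESeq2, 672 and 460 with limma at a pseudocount of 1, with and without the filter, 1358 with the skin covariate, 361 without the 3 fish and 459 to 1168 with 1 library left out. Uncalled fold changes in Refed_3h vs Fast that changed sign in limma at pseudocounts of 1 and 0.1, and of 1 without the filter, were tecrb (-0.19, -0.20, -0.19), elovl1b (-0.072, -0.074, -0.072) and elovl6 (-0.24, -0.28, -0.24). With the skin covariate elovl7a was 0.12, hsd17b12a 0.87 and hacd1 -0.038, and without the 3 fish hsd17b12a was 0.14. With 1 library left out elovl6 ran from -0.073 to 0.28 and hsd17b12a from -0.16 to 0.31. In Refed_8h vs Fast elovl5 was -0.040, -0.061 and -0.040 in the limma fits and -0.095 to 0.16 with 1 library left out. The cause of these shifts was not tested, except that fewer libraries were fitted where fish were left out. The log2 ratio of elovl1a to elovl1b fell from 0.25 to 0.057 in Refed_3h vs Fast without Refed_3h replicate 2, and from 0.34 to 0.16 between the refed groups without Refed_8h replicate 1. That of tecra to tecrb ran from 1.56 to 2.14, 0.87 to 1.45 and -0.80 to -0.56 in the 3 comparisons with 1 library left out. The replicate numbers were not taken as pairs, since the labels name nothing they share. The data alone gave a hint of something shared by number. Deviations of same-numbered fish correlated over 0.1 in 7 of 12 pairs (-0.19 to 0.27), against 7 of 36 pairs of different number. Likewise 13 of 24 best matches had the same number, where 6 would if the number carried nothing. With the replicate block 2, 0 and 1 members and 934, 280 and 1166 genes were called in the 3 comparisons, with no member call changed. With replicates 1 and 2 against 3 and 4 as a block 1173, 323 and 1373 genes were called, again with no member call changed. No value was obtained for elovl2 in limma with the filter, nor in Refed_3h vs Fast with only these groups, where its counts were too low. Counts were fewest for elovl2, at 4 to 15, and for elovl5 in Refed_3h, at 15 to 19.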
